A study of Drosophila melanogaster with 7 samples.

Results

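The peaks of dCTCF and of BEAF in mitotic Kc167 cells were compared with each other. Kc167 is a long-established line of Drosophila melanogaster cells of embryonic origin, and each protein was mapped by chromatin immunoprecipitation and sequencing (ChIP-seq). All peaks of both mitotic lists that lay on X, 4, or an arm of chromosome 2 or 3 were taken, which gave 2237 dCTCF and 2432 BEAF peaks, or 4669 of the 40204 peaks in all 7 lists of the series. The mitotic dCTCF group was chromatin of these cells precipitated with a mixture of guinea pig and rat antibodies against dCTCF, and the mitotic BEAF group was the same kind of chromatin precipitated with a rabbit antibody against BEAF. The labels name no treatment or genetic change for either group. All groups came from formaldehyde-fixed cells that had been stained with antibodies against phosphorylated histone H3 and an anti-rabbit reagent before sorting. Whether those antibodies were carried into the precipitation was not tested.

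dCTCF is the fly homolog of the vertebrate insulator protein CTCF and binds DNA through an array of zinc fingers. BEAF, the boundary element-associated factor, was first described at the scs' boundary of the heat shock locus and is found mostly close to the promoters of active genes. Both can be joined on chromatin by CP190, which is thought to link insulator sites to each other, and Su(Hw) is the zinc-finger protein of the gypsy insulator. In mitosis chromosomes condense and many regulators leave the DNA, so which insulator proteins still occupy the same places is a question the series' design raises.

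Each group was 1 library. Differences could therefore not be checked between replicates, p-values were not computed, and the peaks of a library are its sites rather than independent samples. The intervals in brackets are 95% Wilson intervals of a share, and 95% Newcombe intervals for a difference of 2 shares, and they cover counting error only. Sequencing depth is unknown because the lists carry no read counts, and a missing peak means only that none was called. Peaks are given by position as in the deposited lists, and were not assigned to genes or promoters. The build is not stated, and sequence names such as 2LHet belong to release 5 of the fly genome. A score is the authors' value for a peak and was used only as a rank within its list, as a percentile from lowest to highest. Scores of 3100 were tied in the lists. This was the highest mitotic dCTCF score and may be a ceiling there, but mitotic BEAF scores reached 3190.51.

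A minority of each list was shared, and most overlaps were partial rather than centred. Of the 2237 mitotic dCTCF peaks, 773 overlapped a mitotic BEAF peak by at least 1 bp (34.6%, 32.6 to 36.6%), and these are called shared dCTCF peaks. Of the 2432 mitotic BEAF peaks, 753 overlapped a mitotic dCTCF peak (31.0%, 29.2 to 32.8%). The other 1464 dCTCF peaks and 1679 BEAF peaks are called private. The shared peaks formed 788 overlapping pairs, since 15 dCTCF peaks overlapped 2 BEAF peaks each and 35 BEAF peaks overlapped 2 dCTCF peaks each. The median pair shared 434.5 bp, which was 45.2% of the dCTCF peak and 72.9% of the BEAF peak. A BEAF peak lay wholly inside its dCTCF partner in 166 pairs (21.1%), and a dCTCF peak wholly inside its BEAF partner in 6. When an overlap of at least 50% of both peaks was required, the shared part fell to 11.5% of the dCTCF list and 10.6% of the BEAF list.

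Mitotic dCTCF peaks lay beside mitotic BEAF peaks more often than on them. Over the 788 pairs the median distance between both midpoints was 329.5 bp, with quartiles of 211.25 and 470.375 bp, and 77 pairs (9.77%, 7.89 to 12.04%) had midpoints within 100 bp of each other. Offset is bounded by peak width, so midpoints were also counted around every mitotic BEAF midpoint whether or not the peaks overlapped. Within 100 bp of a BEAF midpoint, summed over both sides, there were 77 dCTCF midpoints (exact Poisson interval 60.8 to 96.2). The number was 107 between 100 and 200 bp, 156 between 200 and 300 bp, and 172 between 300 and 400 bp (147 to 200). Farther out it fell to 110 between 400 and 500 bp and to 14.6 per 100 bp between 1500 and 2000 bp. The count closest to the BEAF midpoint was thus below the count at 300 to 400 bp, and their intervals did not overlap. The dCTCF midpoint lay on the lower coordinate side in 387 pairs and on the higher side in 401. The lists give no summits, so a midpoint is the centre of the called region and not the point of highest signal.

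**Figure D1:**
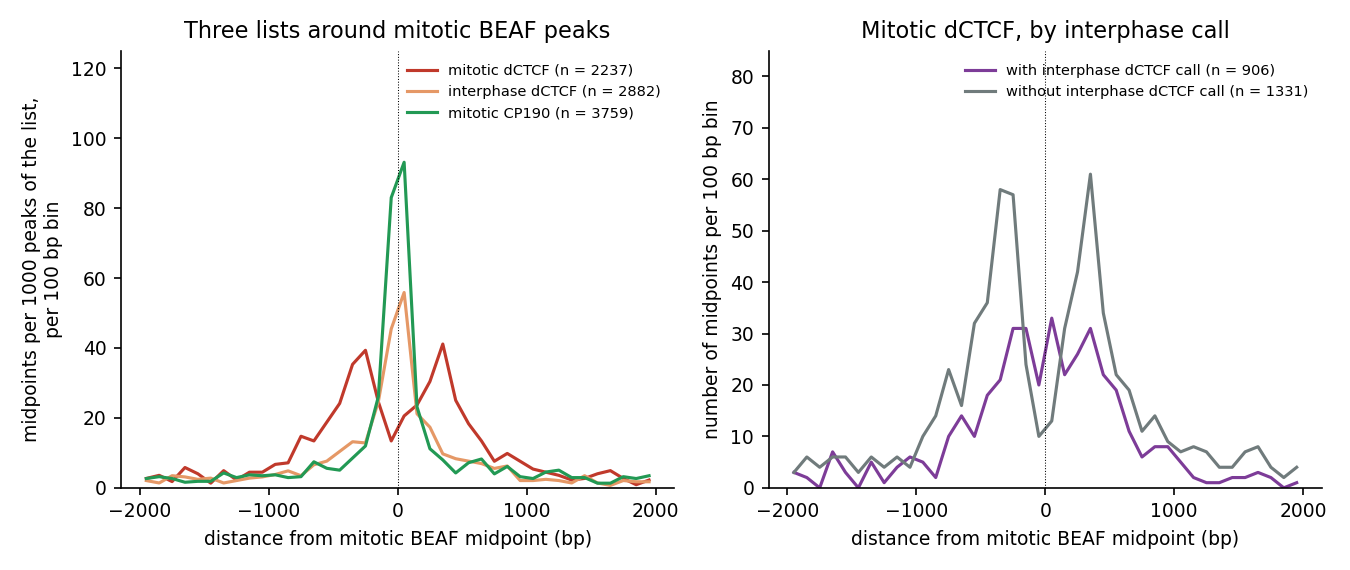
Midpoints in 100 bp bins by distance from the midpoints of the 2432 mitotic BEAF peaks. Left, midpoints per 1000 peaks of the mitotic dCTCF, interphase dCTCF and mitotic CP190 lists; right, numbers of mitotic dCTCF midpoints, split by whether the dCTCF peak overlapped an interphase dCTCF peak. Interphase dCTCF and mitotic CP190 have 1 maximum at the BEAF midpoint, and mitotic dCTCF has a maximum on each side of it.

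The same BEAF midpoints were central for mitotic CP190 and for interphase dCTCF. There were 662 mitotic CP190 midpoints within 100 bp of a mitotic BEAF midpoint and 62 between 300 and 400 bp. For interphase dCTCF these numbers were 292 and 66, so the list made with the same dCTCF antibodies in interphase was highest at the centre. Among overlapping pairs of mitotic CP190 and mitotic BEAF, 62.0% (59.0 to 64.8%) of 1068 had midpoints within 100 bp, which was 52.2 percentage points (48.5 to 55.6) more than for mitotic dCTCF and BEAF. For interphase dCTCF and interphase BEAF the share was 45.1% (42.5 to 47.6%) of 1447 pairs, with a median offset of 121.5 bp. Mitotic dCTCF midpoints were not displaced from interphase dCTCF midpoints in this way, since 47.9% (44.8 to 51.0%) of 979 such pairs lay within 100 bp. With CP190, pairs of mitotic dCTCF were less often centred than with interphase dCTCF. Of 830 pairs of mitotic dCTCF and mitotic CP190, 27.95% lay within 100 bp, with a median offset of 217.25 bp. With interphase CP190 the share was 17.2% of 1718 pairs and the median 277.75 bp. A low share of centred pairs was thus not confined to BEAF. Midpoints were not counted around CP190 peaks, so whether mitotic dCTCF lay beside them more often than on them was not tested. CP190 sites without BEAF were not examined apart. Mitotic dCTCF peaks were wider than the others, with a median of 896 bp against 565 bp for mitotic BEAF and 564 bp for mitotic CP190. In pairs whose peaks were both at most 1000 bp wide, 5.69% of 457 dCTCF and BEAF pairs lay within 100 bp, against 73.3% of 845 CP190 and BEAF pairs.

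How central a mitotic dCTCF peak was differed with its history in interphase. Of the pairs whose dCTCF peak overlapped an interphase dCTCF peak, 54 of 317 (17.0%, 13.3 to 21.6%) had midpoints within 100 bp. Of those without an interphase dCTCF call, 23 of 471 did (4.88%, 3.28 to 7.22%), a difference of 12.2 points (7.74 to 17.0). Among the mitotic dCTCF peaks without an interphase call, 23 midpoints lay within 100 bp of a BEAF midpoint and 120 between 300 and 400 bp. Among those with one, the numbers were 54 and 52. Read by distance, the dCTCF peak had an interphase dCTCF call in 70.1% (59.2 to 79.2%) of the 77 pairs within 100 bp, in 48.6% of the 107 pairs between 100 and 200 bp and in 30.2% (23.9 to 37.5%) of the 172 pairs between 300 and 400 bp. Mitotic CP190 was called at either peak in 67.5% (56.5 to 76.9%), 58.9% and 34.9% (28.2 to 42.3%) of the same pairs. Neither share fell steadily with distance. Between 400 and 700 bp the dCTCF peak had an interphase call in 35.9 to 43.5% of pairs per 100 bp bin and CP190 was called in 50 of 110, 38 of 78 and 23 of 46 pairs. In the 19 pairs between 700 and 800 bp and the 10 between 800 and 1000 bp, CP190 was called in 63.2% (41.04 to 80.9%) and 70.0% (39.7 to 89.2%), so its share was lowest at 300 to 400 bp and, in few pairs, about as high at the far end as at the centre. In these far pairs the dCTCF peak had an interphase call in 31.6% (15.4 to 54.0%) and 10.0% (1.79 to 40.4%). The last of these was the lowest interphase share of any bin, from 10 pairs. The pairs within 100 bp also had wider dCTCF peaks, with a median of 1283 bp against 875.5 bp at 300 to 400 bp, and whether width accounts for part of these differences was not tested.

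Where CP190 joined a pair, it was placed with BEAF. In 339 pairs a mitotic CP190 peak overlapped both partners, and in 278 of them (82.0%, 77.6 to 85.7%) the CP190 midpoint was closer to the BEAF midpoint than to the dCTCF midpoint. The median distance of CP190 was 58.5 bp from BEAF and 265.5 bp from dCTCF. Interphase CP190 was likewise closer to BEAF in 80.0% (76.8 to 82.8%) of 679 pairs. Interphase dCTCF was closer to the BEAF midpoint in 39.5% (34.1 to 45.1%) of 304 pairs, and its median distance was 115.5 bp from the mitotic dCTCF midpoint and 181.5 bp from the BEAF midpoint.

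Single sites show both arrangements. A centred pair was on X, where dCTCF at 18737108 to 18738353 (score 1348.97, percentile 97.6) covered BEAF at 18737299 to 18738064 (score 2482.43, percentile 95.7). The midpoints were 49 bp apart, and the site also had dCTCF, BEAF and CP190 in interphase and CP190 in mitosis. A displaced pair, also on X, had dCTCF at 19491947 to 19493339 (percentile 92.0) and BEAF at 19491563 to 19492323 (score 3100), with midpoints 700 bp apart. On 3R, BEAF at 6613521 to 6614557 (score 3137.17) had a dCTCF peak on each side, at 6613395 to 6614088 (score 72.14) and 6614215 to 6615000 (score 123.33). The BEAF peak at 3R 1485384 to 1486713 (score 3100) was also flanked, by dCTCF peaks whose midpoints were 700.5 bp below and 657.5 bp above its own. The 4 highest scoring BEAF peaks with 2 dCTCF partners each had 1 partner on each side. Such double flanks were the minority: of the 743 BEAF peaks with a dCTCF midpoint between 100 and 1000 bp away, 64 (8.61%) had one on both sides.

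**Figure D2:**
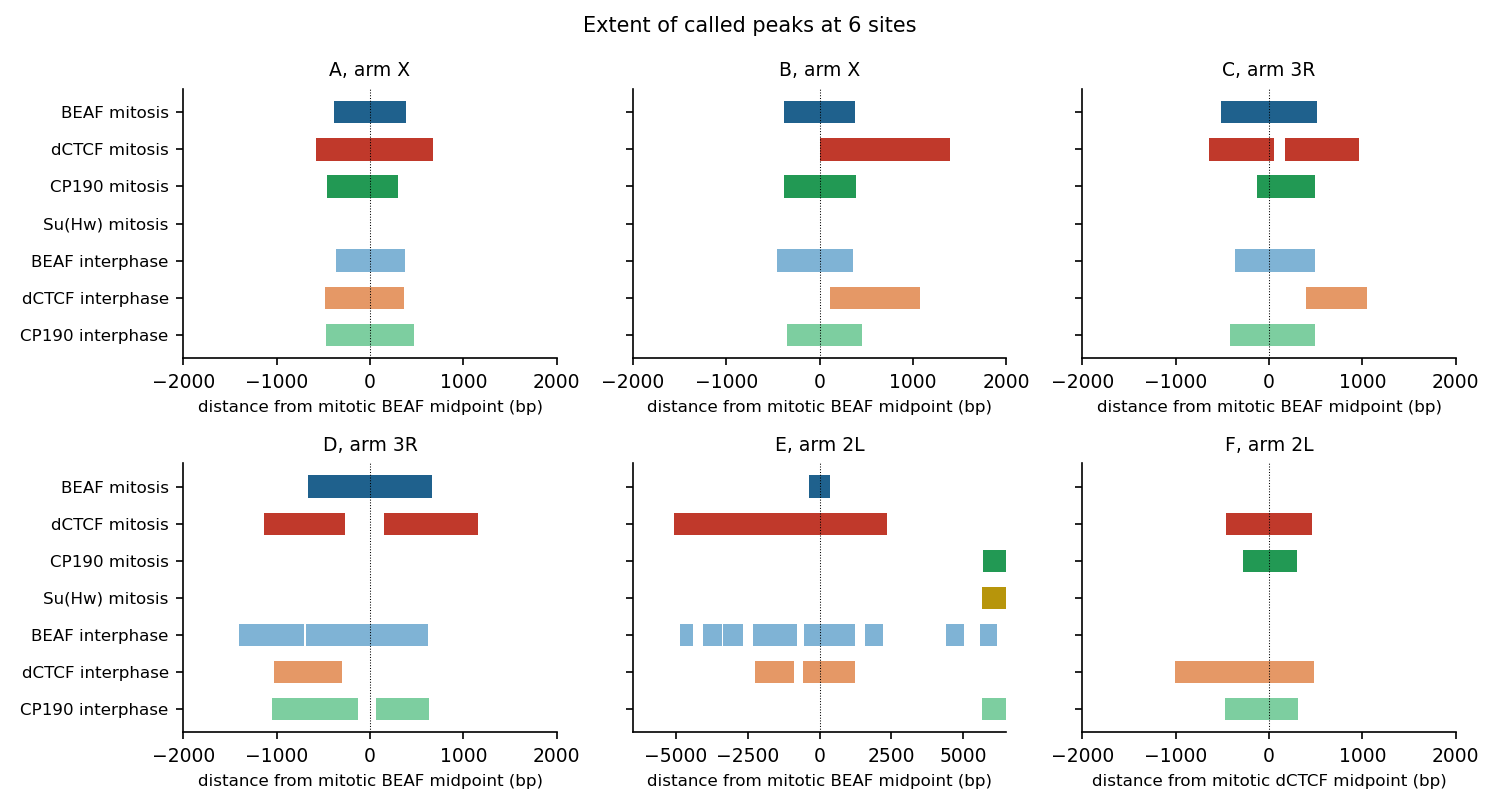
Extent of the called peaks of all 7 lists at 6 sites, as distance in bp from the mitotic BEAF midpoint (mitotic dCTCF midpoint in F). A and B are the centred and the displaced pair on X, C and D the flanked BEAF peaks on 3R, E the 7422 bp dCTCF region on 2L and F the private dCTCF peak on 2L. In A the peaks are stacked, in B to D the dCTCF peaks extend to one side or lie on both sides of BEAF, and F has no BEAF peak.

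Without regard to width, sharing was higher at higher scores among BEAF peaks. Among dCTCF peaks it differed only in the highest score quintile, where it was lower. Among BEAF peaks the shared part was 22.8% (19.3 to 26.8%) in the lowest score quintile and 38.8% (34.6 to 43.2%) in the highest, a difference of 16.0 points (10.2 to 21.6). Among dCTCF peaks it was between 35.9 and 38.3% in the lower 4 quintiles and 23.7% (19.96 to 27.8%) in the highest. The highest quintile minus the fourth gave -13.9 points (-19.8 to -7.90). The median score of shared dCTCF peaks was 98.37 and that of private ones 107.725, at percentiles of 47.0 and 52.3. This difference rested in part on broad regions, since with peaks of at most 2000 bp it was -1.70 (-8.57 to 4.81), and with scores of at least 100 it was -35.6. Shared BEAF peaks had a median score of 397.77 (percentile 55.6) and private ones 287.31 (percentile 47.6).

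Within score classes, BEAF sharing still differed with width. Shared BEAF peaks had a median width of 629 bp (quartiles 500 and 827) and private ones 541 bp (441 and 681). Each list was divided into 3 equal parts (tertiles) by score and by width. In the highest tertile of BEAF scores, 15.4% (8.01 to 27.5%) of the 52 peaks in the lowest width tertile were shared and 40.7% (36.7 to 44.9%) of the 550 in the highest. In the lowest tertile of scores they were 22.3% (18.9 to 26.0%) of 530 and 51.1% (37.2 to 64.7%) of 47. Within a width tertile, BEAF sharing was not higher in the highest score tertile than in the lowest. From the lowest to the highest score tertile it was 22.3, 23.0 and 15.4% in the lowest width tertile. It was 30.3, 27.8 and 28.2% in the middle width tertile and 51.1, 44.3 and 40.7% in the highest. A wider region has more room to be overlapped, and a width effect of this kind cannot be told apart from one of binding. Median widths of shared and private dCTCF peaks were close, at 902 bp (interval of the median 885 to 924) and 893.5 bp (876 to 908). With peaks of at most 2000 bp in both lists, shared dCTCF peaks were wider, at 891 against 855.5 bp, a difference of 35.5 bp (15.9 to 61.3). The share of dCTCF peaks with BEAF was 25.9% (22.1 to 30.1%) in the narrowest width quintile, 43.0% in the fourth (38.4 to 47.6%) and 25.2% (21.4 to 29.4%) in the widest.

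**Figure D3:**
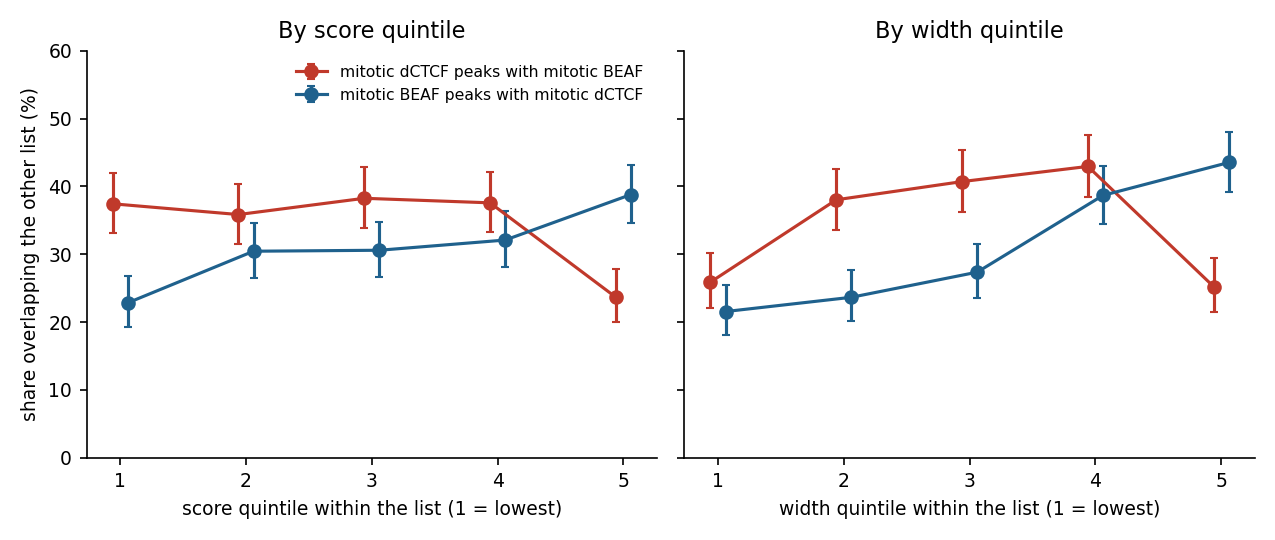
Share of peaks overlapping the other mitotic list, by quintile of score (left) and of width (right) within each list; each point is a share of 446 to 487 peaks and bars are 95% Wilson intervals. BEAF sharing is higher at higher scores and widths, and dCTCF sharing drops in the highest quintile of each.

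Broad dCTCF regions were seldom shared, and most of them had high scores. Of the dCTCF peaks, 206 were over 2000 bp wide, against 8 BEAF peaks. Of these broad dCTCF regions, 148 were in the highest score quintile, and 32 were shared (15.5%, 11.2 to 21.1%), against 741 of the 2031 narrower dCTCF peaks (36.5%, 34.4 to 38.6%). With broad regions left out, the highest score quintile still had the lowest share, 30.7% (25.7 to 36.1%), but its interval overlapped that of the fourth quintile (37.3%, 32.9 to 42.0%). The 174 broad private regions had a median width of 4230.5 bp. BEAF had been called in interphase at 68.4% (61.1 to 74.8%) of them, interphase dCTCF at 48.9% and mitotic Su(Hw) at 27.6% (21.5 to 34.7%). Over all mitotic dCTCF peaks these shares were 66.1%, 40.5% and 6.62%, and over all private ones 48.5%, 40.6% and 7.17%. A region of this width has more room to meet any other peak, and the part of width in these differences was not tested. Over the 151 broad regions with interphase BEAF, the median number of interphase BEAF peaks in a region was 2, and the highest was 6.

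The score ranks of shared sites in both lists were close to unrelated. Over the 788 pairs Spearman's rho was -0.02 for score and 0.11 for width, as a description of pairs that share their region and its sequencing properties. Pairs in the highest tertile of both lists numbered 87, and pairs in the highest tertile of dCTCF but the lowest of BEAF numbered 70. The 8 pairs with the highest scores in both lists included 3L 18892001 to 18893246 for dCTCF (percentile 93.8) with BEAF at 18891808 to 18892490 (percentile 95.6), and 3L 16947982 to 16949041 (percentile 95.2) with BEAF at 16948345 to 16948845 (percentile 88.4). Mitotic CP190 was at all 8 and interphase dCTCF at 7, against 44.4% and 40.2% of all shared dCTCF peaks. In the highest score tertile of shared dCTCF peaks these shares were 59.9% and 64.5%. All 8 also had interphase BEAF and interphase CP190, as did 99.5% and 87.1% of all shared dCTCF peaks.

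Discordant pairs were of 2 kinds. On 2L the dCTCF peak at 11816293 to 11817104, with a score of 3100 in mitosis and 3100 in interphase, met a BEAF peak at 11816364 to 11816827 with a score of 59.82. On 3L the dCTCF peak at 14104350 to 14105218 (percentile 95.9) met a BEAF peak of score 53.44 (percentile 2.41), with midpoints 48.5 bp apart. The other 2 pairs with high dCTCF and low BEAF were broad dCTCF regions on 2L, at 19147119 to 19154540 (7422 bp) and 2772396 to 2779342 (6947 bp), where neither CP190 list had a call. In the opposite direction, BEAF at 3R 11971829 to 11973266 had a score of 3100 and its dCTCF partner at 11971567 to 11972606 a score of 52.49. BEAF at X 5216434 to 5216990 (percentile 94.3) had a partner at the dCTCF percentile of 3.13. The 4 pairs with high BEAF and low dCTCF had offsets of 355 to 563.5 bp, where all pairs had quartiles of 211.25 and 470.375 bp. An interphase dCTCF call was found for 1 of the 4, against 25.7% of shared dCTCF peaks in the lowest score tertile.

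The strongest private sites lay at widely differing distances from the other protein. The 8 highest scoring private dCTCF peaks were 6931 to 246837 bp from the nearest mitotic BEAF peak, and 3 of them were closer than the median of all private dCTCF peaks (17152 bp). All 8 had an interphase dCTCF call and 5 had mitotic CP190, against 40.6% and 30.1% of all private dCTCF peaks. In the highest score tertile of private dCTCF peaks these shares were 67.1% and 45.7%. The peak at 2L 3785856 to 3786769 (score 2933.37) had scores of 3100 for interphase dCTCF and interphase CP190 and of 2500.2 for mitotic CP190, with the nearest mitotic BEAF peak 26530 bp away. The peak at 2R 15884581 to 15885682 (score 3100) was 246837 bp from the nearest mitotic BEAF peak. The peak at 3R 7438821 to 7439591 (score 2600.5) had a weak interphase BEAF call (74.51) and none in mitosis. Those at X 22022204 to 22028813 and 2L 16153613 to 16161225 were broad regions of 6610 and 7613 bp without CP190. The 8 highest scoring private BEAF peaks were 5269 to 62369 bp from the nearest mitotic dCTCF peak, and 2 of them were closer than the median of all private BEAF peaks (11381 bp). Mitotic CP190 was at 7 of the 8, against 40.9% of all private BEAF peaks and 63.1% of those in the highest score tertile. Interphase dCTCF was at 2 of the 8, with scores of 56.89 and 61.46. It was at 20.4% of all private BEAF peaks and 26.9% of those in the highest score tertile. All 8 had interphase BEAF and interphase CP190, as did 98.9% and 83.9% of all private BEAF peaks. The highest, at X 16334799 to 16335930 (score 3190.51), lay 48391 bp from the nearest mitotic dCTCF peak, and that at 2R 11819128 to 11819988 (score 3123.92) lay 62369 bp away.

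Few private peaks were near misses. Of the private dCTCF peaks, 78 (5.33%) had a mitotic BEAF edge within 500 bp, and the median gap was 17152 bp. For private BEAF peaks, 99 (5.90%) had a mitotic dCTCF edge within 500 bp and the median gap was 11381 bp. The closest miss was on X, where dCTCF at 14136146 to 14136957 ended 3 bp before BEAF at 14136961 to 14137281. The next was on 2L, where 5 bp separated dCTCF at 19492123 to 19493078 from BEAF at 19493084 to 19493851 (percentile 91.2). Interphase BEAF at the 4 closest misses had scores of 1556.45 to 3100, and a call there is the rule, since 99.1% of all mitotic BEAF peaks overlapped one.

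BEAF sharing was highest on 3R, and dCTCF sharing was highest on 3R and X. Of the dCTCF peaks on 3R, 214 of 525 were shared (40.8%, 36.6 to 45.0%), as were 207 of the 534 BEAF peaks there (38.8%, 34.7 to 43.0%). On 2L the shares were 26.6% (22.7 to 30.9%) for dCTCF and 28.9% (24.7 to 33.5%) for BEAF. The excess of 3R over 2L was 14.2 points (8.17 to 19.9) for dCTCF and 9.87 points (3.72 to 15.8) for BEAF. The excess of 3R over X was 11.3 points (5.77 to 16.8) for BEAF and 1.06 points (-5.29 to 7.35) for dCTCF, so for dCTCF these 2 arms were not told apart. On X 39.7% (35.1 to 44.5%) of 408 dCTCF peaks but 27.4% (24.0 to 31.2%) of 572 BEAF peaks were shared, and X held 18.2% of the dCTCF list and 23.5% of the BEAF list. Chromosome 4 had 2 pairs, from 12 dCTCF and 23 BEAF peaks. The displacement was seen on each large arm, where the median offset lay between 315.25 bp (2L) and 347 bp (X). In windows of 1000000 bp, pairs were found in 117 of 124 windows with a median of 6. The highest number was 18, at 3R 5000001 to 6000000, followed by 17 at 2R 19000001 to 20000000 and 17 at 3R 1000001 to 2000000.

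**Figure D4:**
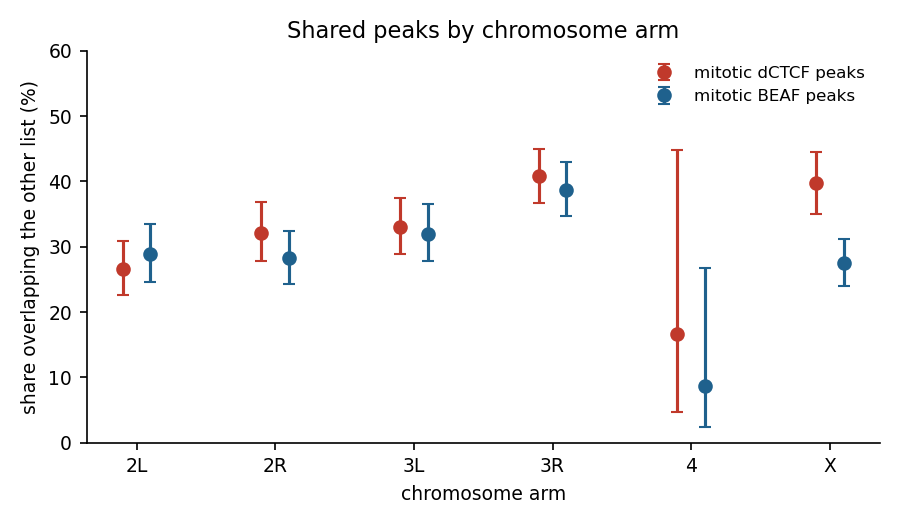
Share of mitotic dCTCF and mitotic BEAF peaks that overlapped the other list, by chromosome arm, with 95% Wilson intervals. On 3R both shares are near 40%, on X the dCTCF share is above the BEAF share, and chromosome 4 has 12 and 23 peaks and wide intervals.

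Shared and private dCTCF peaks had interphase dCTCF in close shares but differed in CP190. Interphase dCTCF was called at 40.2% (36.8 to 43.7%) of shared and 40.6% (38.2 to 43.2%) of private dCTCF peaks, a difference of -0.41 points (-4.65 to 3.88). Interphase BEAF was called at 769 of the 773 shared peaks (99.5%) and at 710 of the 1464 private ones (48.5%, 45.9 to 51.1%). The first of these shares was fixed by the division itself, because shared peaks lie at mitotic BEAF, and 99.1% of mitotic BEAF peaks overlapped interphase BEAF. Interphase CP190 was at 87.1% (84.5 to 89.2%) and 64.3% (61.9 to 66.8%), and mitotic CP190 at 44.4% (40.9 to 47.9%) and 30.1% (27.8 to 32.5%). The CP190 shares of shared peaks are not independent of the division either. Of all mitotic BEAF peaks, 85.4% overlapped interphase CP190 and 42.7% mitotic CP190. The mitotic CP190 difference was present in each tertile of the dCTCF scores, with 37.5% against 19.7% in the lowest and 59.9% (53.3 to 66.2%) against 45.7% (41.5 to 50.01%) in the highest. Su(Hw) was at 5.56% of shared and 7.17% of private dCTCF peaks. No call in any of the other 5 lists was found for 278 private dCTCF peaks (19.0%, 17.1 to 21.1%).

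Shared and private BEAF peaks differed mainly in interphase dCTCF, a difference tied to the division itself. Shared BEAF peaks lie at mitotic dCTCF, and 40.5% of all mitotic dCTCF peaks overlapped interphase dCTCF. Interphase dCTCF was called at 313 of 753 shared BEAF peaks (41.6%, 38.1 to 45.1%) and at 343 of 1679 private ones (20.4%, 18.6 to 22.4%), a difference of 21.1 points (17.1 to 25.1). In the lowest tertile of BEAF scores the shares were 41.8% (35.4 to 48.5%) and 17.6% (14.7 to 20.8%), and in the highest tertile 47.4% (41.8 to 53.2%) and 26.9% (23.3 to 30.9%). Mitotic CP190 was at 46.6% (43.1 to 50.2%) of shared and 40.9% (38.6 to 43.3%) of private BEAF peaks. Within each tertile of the BEAF scores the intervals of those shares overlapped, as in the middle tertile with 35.3 and 35.7%. Interphase BEAF was at 99.6% of shared and 98.9% of private BEAF peaks.

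**Figure D5:**
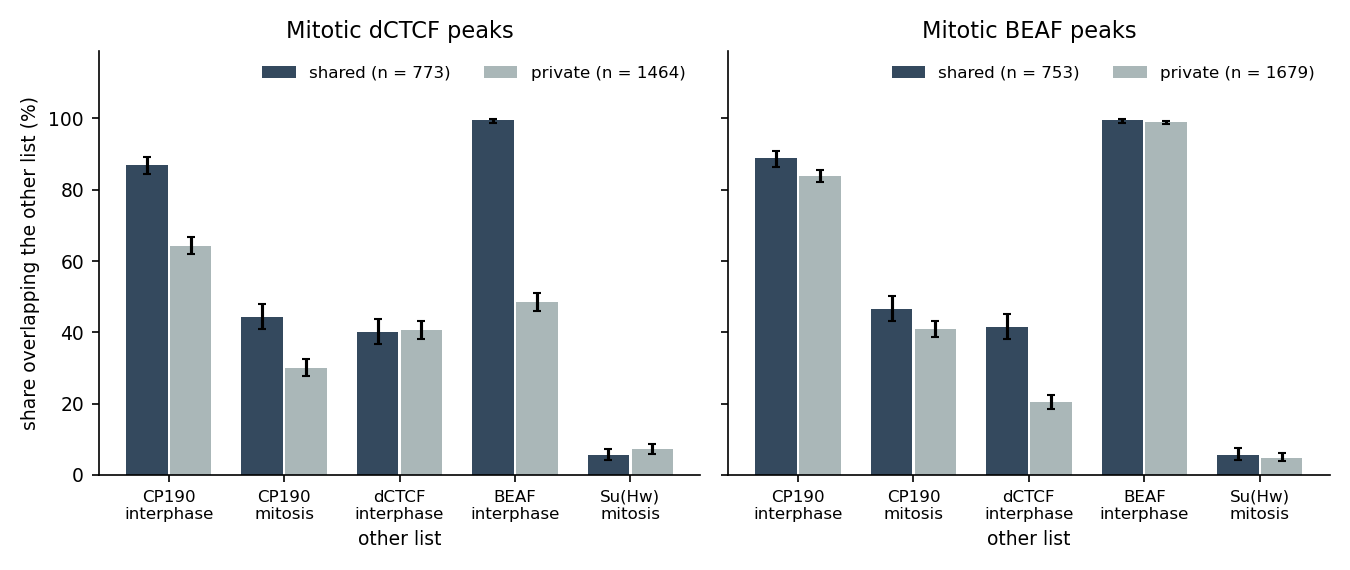
Share of mitotic dCTCF peaks (left) and mitotic BEAF peaks (right) that overlapped a peak of each of the other 5 lists, for shared and private peaks, with 95% Wilson intervals. Shared dCTCF peaks exceed private ones in CP190 and, by the way they were divided, in BEAF, but not in interphase dCTCF. Shared BEAF peaks exceed private ones mainly in interphase dCTCF. The differences in CP190 and in interphase dCTCF are not independent of the division either.

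Private dCTCF peaks at interphase BEAF sites were displaced too, and somewhat less often than shared ones. The 710 private dCTCF peaks with interphase BEAF formed 922 pairs with it, of which 12.5% (10.5 to 14.8%) had midpoints within 100 bp and whose median offset was 363.75 bp. For the 769 shared dCTCF peaks with interphase BEAF, the share was 8.15% (6.48 to 10.2%) of 834 pairs and the median offset 389.5 bp. Private minus shared was 4.32 points (1.47 to 7.15) for the share within 100 bp. The interphase BEAF peaks involved were weaker at the private sites, with a median percentile of 32.0 in their list against 81.6 at the shared sites. Private dCTCF peaks overlap no mitotic BEAF peak, so this difference is tied to the division. In the highest tertile of interphase BEAF scores, 1862 peaks kept a mitotic BEAF call and 32 did not. In the lowest tertile, 51 peaks kept one and 1843 did not. Of the interphase BEAF peaks that kept a mitotic BEAF call, 32.1% (30.3 to 34.0%) of 2392 overlapped mitotic dCTCF, and of those that did not, 28.1% (26.6 to 29.6%) of 3289 did. In the middle tertile of interphase BEAF scores, where both outcomes were frequent, the order was the opposite, with 23.0% (19.4 to 26.9%) of 479 and 27.8% (25.5 to 30.2%) of 1414, a difference of -4.83 points (-9.10 to -0.25).

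Mitotic pairs lacked a dCTCF call in interphase about as often as the whole mitotic dCTCF list, in which 1331 of 2237 peaks (59.5%) had none. Of the 788 mitotic pairs, 314 (39.8%, 36.5 to 43.3%) had both interphase dCTCF and interphase BEAF, 471 (59.8%, 56.3 to 63.1%) had interphase BEAF without interphase dCTCF and 3 had interphase dCTCF alone. Read from interphase, the 1447 overlapping pairs of interphase dCTCF and BEAF divided almost evenly, with 330 called for both proteins in mitosis, 372 for dCTCF alone, 367 for BEAF alone and 378 for neither. At these sites mitotic dCTCF was called in 47.3% (43.7 to 51.1%) of the pairs with mitotic BEAF and in 49.6% (46.0 to 53.2%) of those without, a difference of -2.25 points (-7.38 to 2.89). The interphase BEAF percentile had a median of 83.5 where both proteins were called in mitosis and of 83.0 where BEAF alone was. It was 35.3 where dCTCF alone was called and 33.3 where neither was. It thus differed with the mitotic BEAF call and little with the mitotic dCTCF call. The interphase dCTCF medians, in the same order, were 35.0, 31.4, 34.6 and 42.0. The interphase midpoints were 245 bp apart in the median pair called for both in mitosis, 130 bp where BEAF alone was called, 127.5 bp where dCTCF alone was called and 60.25 bp where neither was.

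Whether dCTCF and BEAF shared more or fewer sites in mitosis than in interphase depended on the direction of counting and on how the lists were cut. In interphase 1399 of 2882 dCTCF peaks overlapped BEAF (48.5%, 46.7 to 50.4%), and mitosis minus interphase was -14.0 points (-16.7 to -11.3). Of the 5681 interphase BEAF peaks, 1412 overlapped dCTCF (24.9%, 23.7 to 26.0%), and mitosis minus interphase was 6.11 points (3.97 to 8.28). With the 2237 highest scoring peaks of each of the 4 lists, the dCTCF share was 32.9% (31.0 to 34.9%) in mitosis and 18.7% (17.2 to 20.4%) in interphase, so its order turned. With a reciprocal overlap of 50% the BEAF share was 10.6% in mitosis and 15.6% in interphase, so that order turned too.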

How the data were processed

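Sites of dCTCF and BEAF in sorted mitotic Kc167 cells were compared, with 5 other lists for context. Per the submitters' processing notes, Bowtie 0.12.5 was used for the reads. For each library the authors deposited 1 peak list of 5 columns: sequence, start, end, name and a score that is never below 50. Peak names begin with MACS. The caller version, threshold, control and build were not given in the sources used here. Reported starts are 1-based. A score depends on depth, which is unknown, so scores were ranked within a list only.

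Groups came from sample titles. Overlaps of at least 1 bp were counted in Python 3.11.15 with pandas 2.3.3, and bedtools 2.31.1 gave the same number in 8 of 8 cases; overlap and offset code was also checked on simulated data. Shares have Wilson or Newcombe intervals (statsmodels 0.14.6), medians binomial order-statistic intervals and midpoint numbers exact Poisson intervals. With 1 library per group no test was run. Members, lists and rules were chosen with earlier results of these data known, and midpoint profiles, comparisons with the interphase pair by equal numbers, and windows after the data were seen. The named peaks are the 8 pairs highest in both lists, 4 discordant pairs in each direction, the 8 highest scoring private peaks of each list, the 4 highest scoring peaks per list with 2 partners, and the 4 nearest misses. From these, examples are given. Motifs were not analysed here. Alternatives were other overlap rules, score and width limits, equal numbers and whole lists.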

Additional observations from a re-analysis of the deposited data

How the results depend on the processing

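The share of dCTCF peaks with BEAF was 34.6% and that of BEAF peaks with dCTCF 31.0%. They moved to 11.5 and 10.6% with a reciprocal overlap of 50%, 11.4 and 10.5% with midpoints within 250 bp, 22.8 and 21.0% with 400 bp around each midpoint, 27.8 and 16.4% with scores of at least 100, and 22.9 and 43.7% over whole lists. Equal numbers of peaks or a limit of 2000 bp on width left both within their intervals. The median offset of 329.5 bp was 217.75 bp with reciprocal overlap, which by construction removes distant pairs, and 240.75 bp over whole lists. The share of pairs within 100 bp was 9.77% and became 13.9% with scores of at least 100, 5.69% with peaks of at most 1000 bp and 27.0% over whole lists. Shared minus private dCTCF peaks changed sign in median width to -18 bp with reciprocal overlap and in median score to 20.95 over whole lists, and BEAF peaks in median score to -2.1 over whole lists.

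Mitosis minus interphase, alternatives chosen after seeing the data, was -14.0 points for dCTCF shared with BEAF. It was -19.3 points with reciprocal overlap, -3.66 with scores of at least 100, -23.0 over whole lists and 14.2 with equal numbers, a reversal. For BEAF shared with dCTCF it was 6.11 points, and -5.04 with reciprocal overlap, a reversal, 2.00 with scores of at least 100, 13.2 with equal numbers and 20.5 over whole lists. The cause of these changes was not tested, apart from the construction named. No paired analysis was possible because each group is 1 library, and no replicate could be left out. Unknown depth limits each count of private peaks.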

Other observations

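Off the main arms the overlap was uneven between the lists. There were 3793 mitotic dCTCF peaks and 893 mitotic BEAF peaks on these sequences. Of the BEAF peaks there, 699 overlapped dCTCF (78.3%, 75.5 to 80.9%), against 31.0% on the main arms, while 608 of the dCTCF peaks overlapped BEAF (16.0%, 14.9 to 17.2%), against 34.6%. On Uextra, sequence not placed on a chromosome, 660 of 812 BEAF peaks (81.3%, 78.5 to 83.8%) and 571 of 3351 dCTCF peaks (17.0%, 15.8 to 18.3%) were shared. On the mapped heterochromatin sequences the shares were 15 of 44 BEAF peaks (34.1%, 21.9 to 48.9%) and 15 of 144 dCTCF peaks (10.4%, 6.41 to 16.5%).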
